A study of Mus musculus with 6 samples.

Results

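The H2al1 genes encode H2A.L.1, a small histone H2A variant of mouse spermatids that is spread over many near-identical copies on the X chromosome. The copies described are the rows of the ribosome footprint table named H2al1c, H2al1d, H2al1f, H2al1i and H2al1m. They are 5 of 22770 gene rows. H2al1c, H2al1d, H2al1f and H2al1i carry the same 6 values and count as 1 measurement, called the shared row here, so that the 5 names give 2 distinct measurements. They were chosen by name, with their difference between the genotypes already known, so their values in the 2 genotypes are a description and carry no test.

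Ribosome profiling sequences the pieces of RNA that ribosomes protect from nuclease, and the amount on a gene reflects both its mRNA and how heavily that mRNA is translated. Round spermatids, the haploid cells that follow meiosis, came from mouse testis in 3 libraries of the genotype labelled Eif5a SKO and 3 libraries labelled Wild type. Eif5a encodes a translation factor that helps ribosomes past difficult stretches of coding sequence. The labels used here give no meaning for SKO, no Cre line and no age, while cKO is the name in the column headers. The series design text, written for an accessibility assay, speaks of sorted cells from 3 mice per group. Where nothing states that the footprint libraries came from separate mice, p-values measure only the spread between these libraries.

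While a spermatid matures it replaces most histones, first with testis variants and transition proteins and then with protamines. H2A.L.1 and its relative H2A.L.2 are short H2A variants that appear late in this exchange, in condensing mouse spermatids, where they were found on pericentric heterochromatin. H2A.L.2 pairs with the testis H2B variant encoded by H2bc1 and opens nucleosomes so that transition proteins can load. Multicopy genes of the X and Y chromosomes are a feature of mouse spermatids, in which sex chromosome transcription is partly held down after meiosis.

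RefSeq (GRCm38.p6, the assembly behind mm10) lists 14 H2al1 genes, all on the X chromosome, and 11 of them have a row. H2al1g, H2al1h and H2al1j were not analysed here. The 10 copies from H2al1a to H2al1j lie in a tandem array of 28895 bases, with starts 3098 to 3224 bases apart. H2al1c lies at chrX:11305655-11305972, H2al1d at chrX:11308824-11309141, H2al1f at chrX:11315158-11315475 and H2al1i at chrX:11324659-11324976. H2al1m stands apart from the array at chrX:9283764-9284288. The 4 copies of the shared row are each annotated with 318 bases, a length no other H2al1 gene has. The other copies span 330 to 539 bases. The RefSeq entries of the 4 begin at an ATG and their length is a multiple of 3, though the frame was not read to a stop. The first 50 bases are the same in all 4 and are shown because a footprint that lies within them cannot be assigned to a single copy. The ATG is in capitals.
H2al1c, H2al1d, H2al1f and H2al1i: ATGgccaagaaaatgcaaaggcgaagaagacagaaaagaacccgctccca

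The windows around the annotated starts also resemble each other. A stretch of 121 bases upstream of the start was found in all 14 H2al1 windows of 300 bases, at full length in 13. It is shown for the 5 copies because it is sequence they share that the choice of rows did not use. It lies 222 to 102 bases before the annotated start in the copies of the shared row and 127 to 7 bases before it in H2al1m. Capitals mark the 5 positions that differ among the 5 copies, on the plus strand.
H2al1c (chrX:11305433-11305553) and H2al1d (chrX:11308602-11308722): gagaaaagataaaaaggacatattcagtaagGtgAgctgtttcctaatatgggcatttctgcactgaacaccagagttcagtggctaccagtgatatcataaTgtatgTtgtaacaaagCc
H2al1f (chrX:11314936-11315056) and H2al1i (chrX:11324437-11324557): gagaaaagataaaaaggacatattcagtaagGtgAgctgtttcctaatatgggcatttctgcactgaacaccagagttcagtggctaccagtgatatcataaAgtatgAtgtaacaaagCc
H2al1m (chrX:9283637-9283757): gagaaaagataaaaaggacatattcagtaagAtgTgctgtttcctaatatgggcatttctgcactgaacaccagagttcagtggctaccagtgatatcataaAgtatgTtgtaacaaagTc

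H2al1c and H2al1d are identical over the stretch, as are H2al1f and H2al1i. The pairs differ from each other at 2 positions, and H2al1m differs from each of the other copies at 4 of 121 positions. H2al1b and H2al1e, which are not in the shared row, have the same stretch as H2al1c. Both strands of the 300 base windows were also searched for 4 promoter motifs. The cAMP response element TGACGTCA was found in 1.79% of 32851 RefSeq windows, its shorter core TGACG in 20.8%, the TATA box TATAAA in 13.6% and the CCAAT box CCAAT in 37.4%. Of the 14 H2al1 windows, 1 held TATAAA and 0 held another of these motifs, and 0 of the 5 members had any. A window without these letters says nothing about binding.

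The genotype labels were checked on the targeted gene. Eif5a (gene ID 276770, chromosome 11) had 1.84, 1.93 and 2.99 FPKM in SKO libraries, against 34.2, 48.8 and 61.9 FPKM in wild-type libraries. FPKM are fragments per length of transcript, scaled to the library's mapped fragments, as the authors deposited them. Eif5a fell by 3.90 on the log2(FPKM + 1) scale (SE 0.37, limma adjusted p = 0.00641).

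The shared row of H2al1c, H2al1d, H2al1f and H2al1i had 10.4, 16.9 and 12.1 FPKM in SKO replicates 1, 2 and 3, against 1.37, 0.904 and 1.22 FPKM in wild-type replicates 1, 2 and 3. The means were 13.1 ± 3.39 FPKM in SKO and 1.16 ± 0.237 FPKM in wild type (SD, n = 3 each), a ratio of 11.3. The groups did not overlap, and the lowest SKO library lay far above the highest wild-type one. A change in the mix of cells, in mRNA per cell and in translation per mRNA cannot be told apart in these samples. On the log2(FPKM + 1) scale, which understates the change of low values, the difference was 2.69.

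H2al1m had 5.92, 8.08 and 4.06 FPKM in SKO replicates 1 to 3, against 0.450, 0.956 and 2.20 FPKM in wild-type replicates 1 to 3. Its means were 6.02 ± 2.01 FPKM in SKO and 1.20 ± 0.903 FPKM in wild type (SD, n = 3 each), a ratio of 5.00 and a log2 difference of 1.71. The groups again did not overlap, but wild-type replicate 3 came closer to the SKO values than its fellow libraries did. All 5 members therefore had every SKO value above every wild-type value, which was also true of 10.9% of the 15578 tested rows and of 50% of the 364 tested X-linked protein-coding rows. The members were chosen on this contrast, so nothing is read from that count.

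The ratio of the shared row to H2al1m in FPKM was 1.75, 2.09 and 2.97 in SKO replicates 1 to 3, against 3.04, 0.945 and 0.554 in wild-type replicates 1 to 3. The highest and the lowest ratio both came from wild-type libraries, so the groups overlap. On the log2(FPKM + 1) scale the shared row exceeded H2al1m by 0.72, 0.98 and 1.37 in SKO replicates 1 to 3, against 0.71, -0.04 and -0.53 in wild-type replicates 1 to 3. The mean excess was 1.02 ± 0.327 in SKO and 0.05 ± 0.623 in wild type (SD, n = 3 each). By FPKM the shared row was thus the higher of the pair in every SKO library. In wild type the order changed from library to library. FPKM divide by length, which is 318 bases in the copies of the shared row and 525 in H2al1m. By the read estimate given below, a copy of the shared row stood for fewer reads than H2al1m in SKO replicates 1 and 2. The estimates were 7.06 and 5.78 reads there, against 10.8 and 7.41 on H2al1m, and 6.32 against 5.71 in SKO replicate 3. The log2 differences include the pseudocount, which shrinks them most at the low wild-type levels, and no test was made.

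**Figure D1:**
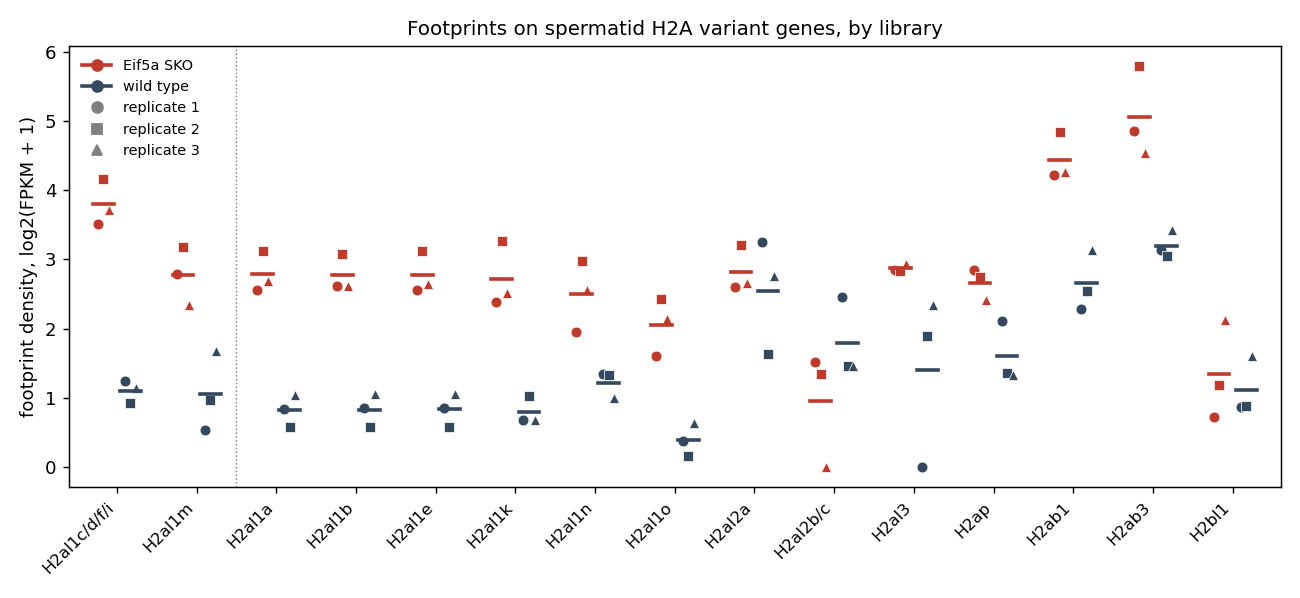
Footprint density, as log2(FPKM + 1), of the spermatid H2A variant genes in the 6 libraries, with Eif5a SKO in red at the left of each gene and wild type in blue-grey at the right. Symbols are replicates, short lines are group means, and the dotted line divides the members from their relatives. The shared row and H2al1m have all SKO points above all wild-type points, while the points of H2al2a mix.

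Few reads lay behind each value. Relative depth was estimated from the steps between low values and was 1, 0.503 and 0.771 in SKO replicates 1 to 3, against 0.787, 0.761 and 0.631 in wild-type replicates 1 to 3. Genes with values in whole-number steps then gave the worth of 1 read, best described with 195 bases taken off the annotated length (37 of 164 genes lay within 1.5% of that line, against 13 with nothing taken off). By this estimate 1 read on a copy of the shared row was worth 1.47 to 2.93 FPKM in SKO libraries and 1.87 to 2.33 FPKM in wild-type libraries. Every wild-type value of the shared row was below that of 1 read by this estimate.

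Each copy of the shared row stood for an estimated 7.06, 5.78 and 6.32 reads in SKO replicates 1 to 3, against 0.731, 0.467 and 0.523 reads in wild-type replicates 1 to 3. The estimate came within 0.0131 of whole reads for H2bl1 and within 0.0994 for H2al3, but missed them by up to 0.291 to 0.494 in the other family rows, whether or not another row has the same values. It therefore does not show how reads that fit several copies were counted, which is not stated. H2al1m stood for 10.8, 7.41 and 5.71 reads in SKO replicates 1 to 3, against 0.646, 1.33 and 2.54 reads in wild-type replicates 1 to 3. By this estimate the ratios of 11.3 and 5.00 rest, in wild type, on less than 1 read per copy of the shared row and on 0.646 to 2.54 reads on H2al1m, which limits their precision.

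Counting the shared row once, the 8 distinct H2al1 measurements summed to an estimated 58.2, 49.4 and 49.2 reads in SKO replicates 1 to 3, against 7.87, 7.31 and 8.68 reads in wild-type replicates 1 to 3. The sum holds the values on which the members were chosen and is a description. The 6 copies that are not members summed to 40.3, 36.3 and 37.2 reads in SKO replicates 1 to 3, against 6.49, 5.52 and 5.62 reads in wild-type replicates 1 to 3. With all 11 rows, in which the shared row stands 4 times, the sums were 66.8 to 79.3 reads in SKO libraries and 8.71 to 10.2 reads in wild-type libraries.

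**Figure D2:**
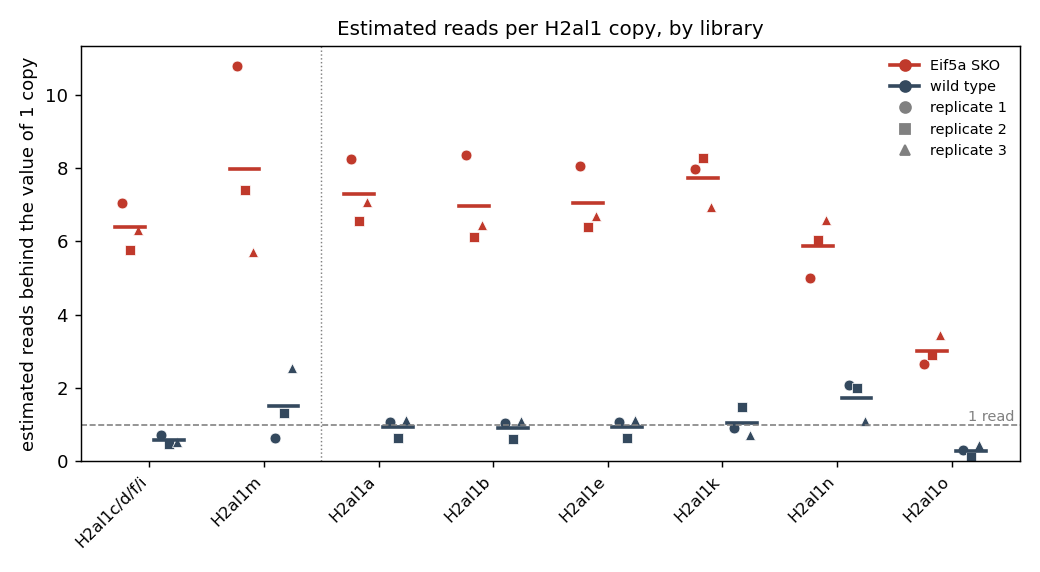
Estimated reads behind the value of a single H2al1 copy in each library, with Eif5a SKO in red and wild type in blue-grey, symbols for replicates and short lines for group means. The dashed line marks 1 read, and the shared row stays below it in the 3 wild-type libraries and between 5.78 and 7.06 in the SKO libraries.

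The other H2al1 copies share sequence with the members and cannot be taken as independent of them. In limma over all tested rows, 17 rows were higher in SKO (0.109% of 15578) and 3 were lower (0.0193%) at an adjusted p under 0.05. The tested rows include the members, with the shared row entered 4 times. With identical rows counted once, 7 rows were higher and 2 lower. None of the 6 other copies (0 of 6) passed, with 6 at an unadjusted p under 0.05. That limit was met by 11% of all tested rows, in either direction, and by 44.8% of the tested X-linked protein-coding rows. After TMM-type scaling, which evens out the libraries' typical levels, 119 rows were higher (0.761% of 15644) and 40 lower (0.256%), and 4 of the 6 copies were among the higher ones. Of the rows called, 85% were higher with the deposited values and 74.8% with that scaling. The median difference of the 6 copies was 1.93, beside 0.13 over all tested rows.

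H2al1a had 4.88, 7.73 and 5.43 FPKM in SKO libraries, against 0.799, 0.492 and 1.05 FPKM in wild-type libraries. Its log2 difference was 1.97, with a limma adjusted p of 0.0775 on the deposited values and of 0.0415 after TMM-type scaling (0.0222 to 0.305 over the settings tried). H2al1b had 5.12, 7.47 and 5.12 FPKM in SKO libraries, against 0.816, 0.502 and 1.07 FPKM in wild-type libraries. H2al1e had 4.88, 7.69 and 5.26 FPKM in SKO libraries, against 0.818, 0.503 and 1.08 FPKM in wild-type libraries. These 3 tandem copies moved almost as a single measurement. H2al1b over H2al1a was 0.944 to 1.05 in SKO libraries and 1.02 in each wild-type library. H2al1e over H2al1a was 0.969 to 1.00 in SKO libraries and 1.02 in each wild-type library. The wild-type value for H2al1e is also the ratio of the annotated lengths of H2al1a and H2al1e after the bases are taken off, 1.02. For H2al1b the lengths so shortened, 306 bases in H2al1a and 295 in H2al1b, do not give its wild-type value.

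The copies outside the array behaved less uniformly. H2al1k, the copy nearest to H2al1m among those listed in RefSeq, had 4.20, 8.65 and 4.73 FPKM in SKO libraries, against 0.611, 1.03 and 0.604 FPKM in wild-type libraries. H2al1o had 2.04, 4.39 and 3.41 FPKM in SKO libraries, against 0.302, 0.124 and 0.552 FPKM in wild-type libraries. H2al1n, on the far side of the array, had 2.88, 6.90 and 4.91 FPKM in SKO libraries, against 1.53, 1.52 and 0.993 FPKM in wild-type libraries. H2al1n showed the smallest difference of the H2al1 rows, 1.28 on the log2 scale (limma adjusted p = 0.269). As a description, over the 6 libraries the correlation of log2 values was 0.909 between the shared row and H2al1m, and between any 2 distinct H2al1 rows it ran from 0.792 for H2al1m and H2al1n to 0.9999 for H2al1a and H2al1e. The libraries' genotype and shared reads enter all of these values.

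Markers of the cells that the samples could hold were summed per library. The 11 round spermatid markers all have a row and summed to 1024 to 2178 FPKM in SKO libraries and 784 to 1446 FPKM in wild-type libraries, with overlapping groups. The 13 markers of elongating spermatids summed to 284 to 440 FPKM in SKO libraries and 231 to 351 FPKM in wild-type libraries, and the 11 of spermatocytes to 242 to 484 FPKM in SKO libraries and 260 to 556 FPKM in wild-type libraries. The labelled cell type thus had its markers in every library. The 5 spermatogonium markers with a row, of 9, summed to 13.5 to 19.9 FPKM in SKO libraries and 12.2 to 13.4 FPKM in wild-type libraries. Leydig cell markers, 8 of 11 with a row, summed to 75.6 to 124 FPKM in SKO libraries and 25.5 to 32.5 FPKM in wild-type libraries. Sertoli cell markers, 6 of 14 with a row, summed to 51.0 to 74.1 FPKM in SKO libraries and 12.7 to 20.1 FPKM in wild-type libraries. Sox9, Amh and Gata4, which define Sertoli cells, were not analysed here, and no marker with a row was at 0 in all libraries. Markers of peritubular, endothelial, macrophage and blood cells, 10 of 16 with a row, summed to 49.1 to 70.7 FPKM in SKO libraries and 57.2 to 118 FPKM in wild-type libraries. This sum joins opposite moves. The smooth muscle and matrix genes Acta2, Myh11, Cnn1 and Dcn summed to 25.8 to 39.2 FPKM in SKO libraries and 4.54 to 6.19 FPKM in wild-type libraries, each higher in SKO without overlap. The haemoglobin genes Hbb-bs, Hbb-bt, Hba-a1 and Hba-a2 summed to 15.2 to 42.0 FPKM in SKO libraries and 50.4 to 109.96 FPKM in wild-type libraries, each lower in SKO without overlap. Of these lists, limma called 1 marker, Dcn, a matrix gene of peritubular and other mesenchymal cells, with 10.2, 9.04 and 7.59 FPKM in SKO libraries, against 1.44, 1.00 and 0.887 FPKM in wild-type libraries (adjusted p = 0.0470). After TMM-type scaling it called Dcn, Acta2 and Clu, all higher in SKO, and 0 markers of germ cells. In the remaining settings Dcn was not followed. Tfrc, described below and at the same adjusted p on the deposited values, lost its call in 12 of 17 settings. At an unadjusted p under 0.05 the lists held 3 of 11 tested round spermatid, 1 of 13 elongating, 0 of 11 spermatocyte, 0 of 3 spermatogonium, 3 of 5 Sertoli, 5 of 8 Leydig and 8 of 10 other somatic markers, beside 11% of all tested rows. Most of the Sertoli sum was Clu and Ctsl, with 46.1 to 67.2 FPKM in SKO libraries and 7.36 to 16.5 FPKM in wild-type libraries, while Trf and Dhh had overlapping groups, with log2 differences of -0.13 and 0.01. The Leydig sum, the Sertoli sum and the 4 muscle and matrix genes move with the genotype in the direction of the H2al1 rows, and the 4 haemoglobin genes move in the other direction. The part of these cells in the H2al1 values was not tested.

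Among the more distant relatives the picture was mixed. H2al2a, on chromosome 2 and the gene of the functionally studied H2A.L.2 protein, had 5.06, 8.26 and 5.32 FPKM in SKO libraries, against 8.54, 2.09 and 5.75 FPKM in wild-type libraries. Its groups overlapped, and its log2 difference was 0.28 (limma adjusted p = 0.874). The H2al2b and H2al2c rows of the Y chromosome again carry identical values, 1.86, 1.54 and 0 FPKM in SKO libraries and 4.50, 1.75 and 1.75 FPKM in wild-type libraries, a log2 difference of -0.84 (limma adjusted p = 0.576).

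H2al3 and H2ap lie between H2al1m and the tandem array on the X chromosome. H2al3 had 6.17, 6.14 and 6.67 FPKM in SKO libraries, against 0, 2.70 and 4.07 FPKM in wild-type libraries (log2 difference 1.46, limma adjusted p = 0.379). H2ap had 6.19, 5.68 and 4.32 FPKM in SKO libraries, against 3.33, 1.57 and 1.51 FPKM in wild-type libraries (log2 difference 1.07, limma adjusted p = 0.320). Neither gene's groups overlapped, but neither passed the test.

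H2ab1 and H2ab3, X-linked genes of the short variant H2A.B that is found at active genes in mouse spermatids, stood at higher densities than any H2al1 row. H2ab1 had 17.5, 27.6 and 18.1 FPKM in SKO libraries, against 3.89, 4.83 and 7.76 FPKM in wild-type libraries (log2 difference 1.78, limma adjusted p = 0.155, and 0.0415 after TMM-type scaling). H2ab3 had 27.9, 54.4 and 22.1 FPKM in SKO libraries, against 7.77, 7.24 and 9.70 FPKM in wild-type libraries (log2 difference 1.86, limma adjusted p = 0.165, and 0.0471 after TMM-type scaling). The autosomal H2bl1 had 0.646, 1.29 and 3.35 FPKM in SKO libraries, against 0.821, 0.850 and 2.05 FPKM in wild-type libraries, with overlapping groups. H2bfm was too low to test. In all, 14 rows of the wider family that are not members were tested, and 0 passed with the deposited values, 10 at an unadjusted p under 0.05, against 11% of all tested rows, and 6 after TMM-type scaling.

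The place of the members among X-linked genes was compared next, because X-linked genes as a group had higher footprint density in SKO libraries. The median log2 difference was 0.76 over 359 tested X-linked protein-coding rows without the members, against 0.10 over 10771 autosomal ones. Ordered from the highest in SKO, the shared row ranked 4 of 356 distinct X-linked measurements and 7 of 11148 distinct protein-coding ones, and H2al1m ranked 31 and 90. By size in either direction the shared row ranked 4 and 13, and H2al1m 31 and 113. With the pseudocount these differences also depend on the annotated length, 318 bases in the copies of the shared row and 525 in H2al1m. The members were chosen with this difference known, so the ranks are a description and nothing is read from them. Relative to the median X-linked gene of the same library, the shared row stood 0.95, 1.04 and 1.02 log2 units above it in SKO replicates 1 to 3, against 0.67, 1.07 and 1.05 units below it in wild-type replicates 1 to 3. Measured this way the SKO libraries differed little among themselves. H2al1m stood at 0.24, 0.06 and -0.35 relative to the same median in SKO replicates 1 to 3, against -1.38, -1.03 and -0.52 in wild-type replicates 1 to 3.

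**Figure D3:**
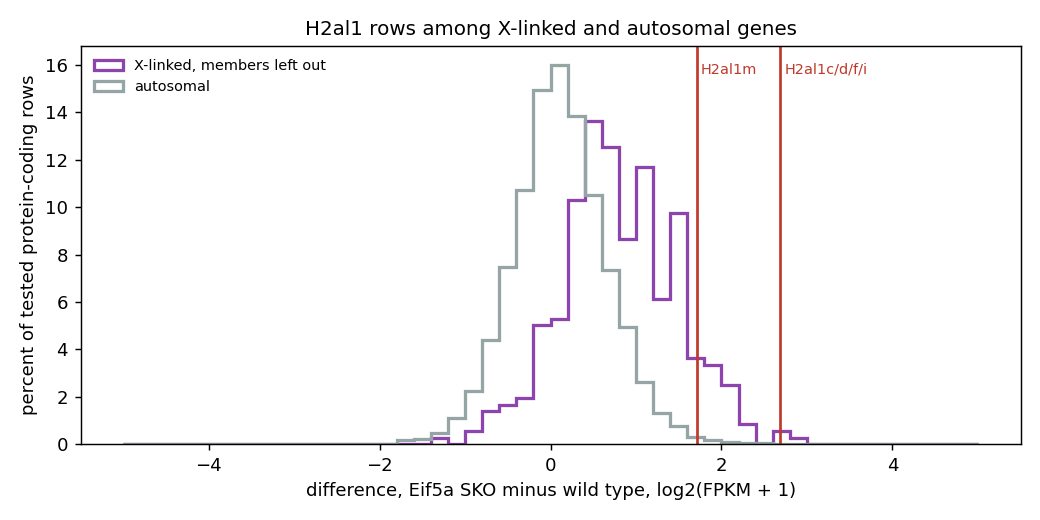
Distribution of the difference between Eif5a SKO and wild type on the log2(FPKM + 1) scale, in percent of tested protein-coding rows, for X-linked rows without the members (purple) and autosomal rows (grey). Red lines place the shared row at 2.69 and H2al1m at 1.71, beside medians of 0.76 for X-linked and 0.10 for autosomal rows.

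Genes around the members were also listed. Within 1000000 bases of a member, 17 tested rows lay outside the family, 14 of them protein-coding. Of these 17 rows, 0 passed limma's test and 2 had an unadjusted p under 0.05, and in 4 the SKO libraries lay above the wild-type libraries without overlap, beside 10.9% of all rows and 50% of X-linked protein-coding rows. In 0 they lay below without overlap, beside 4.78% of all rows. Their median log2 difference was 0.57, and they ran from -0.41 for Rpgr, whose product sits at the ciliary base, to 2.75 for Dynlt3, a dynein light chain. Dynlt3 had 14.6, 23.0 and 15.0 FPKM in SKO libraries, against 5.20, 0.586 and 1.02 FPKM in wild-type libraries (limma adjusted p = 0.101). Rpgr had 10.5, 13.1 and 9.92 FPKM in SKO libraries, against 12.4, 15.4 and 17.8 FPKM in wild-type libraries (limma adjusted p = 0.701). Both were picked for their place at the ends of this range. The other neighbours included several Ssxb genes, another multicopy family, at 0.54 to 0.89.

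**Figure D4:**
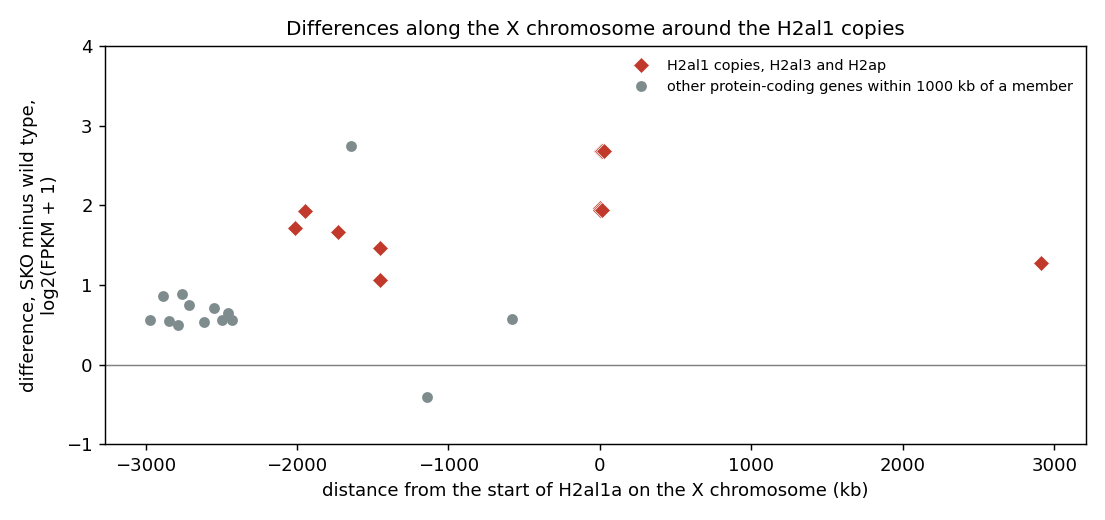
Difference between Eif5a SKO and wild type, on the log2(FPKM + 1) scale, against distance in kb from the start of H2al1a on the X chromosome, for the H2al1 copies, H2al3 and H2ap (red) and other protein-coding genes nearby (grey). The 4 copies of the shared row lie together at 2.69, and Dynlt3 is the single neighbour at that height.

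Histone variants of spermatids and their usual partners were taken as a list of 18 genes, of which 15 were tested. None (0 of 15) passed limma's test with the deposited values, 7 had an unadjusted p under 0.05 (11% of all tested rows), and 2 passed after TMM-type scaling. Their median log2 difference was 0.84, beside 0.13 over all tested rows, and 11 of the 15 lay above that value. H2bc1, the testis H2B that forms dimers with H2A.L.2, had 67.5, 138 and 161 FPKM in SKO libraries, against 11.1, 13.7 and 24.7 FPKM in wild-type libraries. Its log2 difference was 2.80 (SE 0.47, limma adjusted p = 0.0775), and after TMM-type scaling 2.64 with an adjusted p of 0.0187. Its neighbour H2ac1, the testis H2A made before H2A.L variants, had 9.52, 17.7 and 25.0 FPKM in SKO libraries, against 4.13, 5.83 and 1.97 FPKM in wild-type libraries (limma adjusted p = 0.205).

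Hils1, a linker histone of elongating spermatids, had 16.9, 32.0 and 25.7 FPKM in SKO libraries, against 4.51, 6.94 and 9.52 FPKM in wild-type libraries (log2 difference 1.70, limma adjusted p = 0.179, and 0.0415 after TMM-type scaling). H3f3b, a gene of the replacement histone H3.3, had 73.2, 171 and 149 FPKM in SKO libraries, against 27.5, 38.8 and 59.7 FPKM in wild-type libraries (limma adjusted p = 0.278). The groups of H2bc1, H2ac1, Hils1 and H3f3b did not overlap. H3f3a, the other H3.3 gene, and H2az1, a general H2A variant, had overlapping groups, with log2 differences of 0.83 and 0.80 (limma adjusted p = 0.587 and 0.568).

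The genes named as transition proteins and protamines gave other values. Prm3 was listed by its name. Of 5 transition protein and protamine genes, 0 passed limma's test, 0 had an unadjusted p under 0.05 and 0 passed after TMM-type scaling, and their median log2 difference was -0.33. Tnp1, a transition protein, had 24.2, 38.1 and 32.7 FPKM in SKO libraries, against 46.3, 31.2 and 54.5 FPKM in wild-type libraries (limma adjusted p = 0.711). Prm1, a protamine, had 11.2, 13.4 and 5.43 FPKM in SKO libraries, against 13.9, 6.21 and 19.9 FPKM in wild-type libraries (limma adjusted p = 0.859). Both had overlapping groups, as did Tnp2, with a log2 difference of 0.21, and Prm3, with 0.97 (limma adjusted p = 0.890 and 0.486). Prm2, the other main protamine, was at -0.53 (limma adjusted p = 0.661).

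Factors that acetylate, remodel or remove histones formed a list of 23 genes with 22 tested. Of these, 0 passed limma's test, 3 had an unadjusted p under 0.05, a share near the 11% of all tested rows, and 0 passed after TMM-type scaling. Their median log2 difference was 0.25. Chd5, a remodeller needed for histone exchange, was at 0.19, the histone chaperone genes Nap1l4 and Npm1 at 0.60 and 0.95, and Brdt, the acetyl-histone reader of male germ cells, at 0.25 (limma adjusted p = 0.930, 0.700, 0.486 and 0.889).

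**Figure D5:**
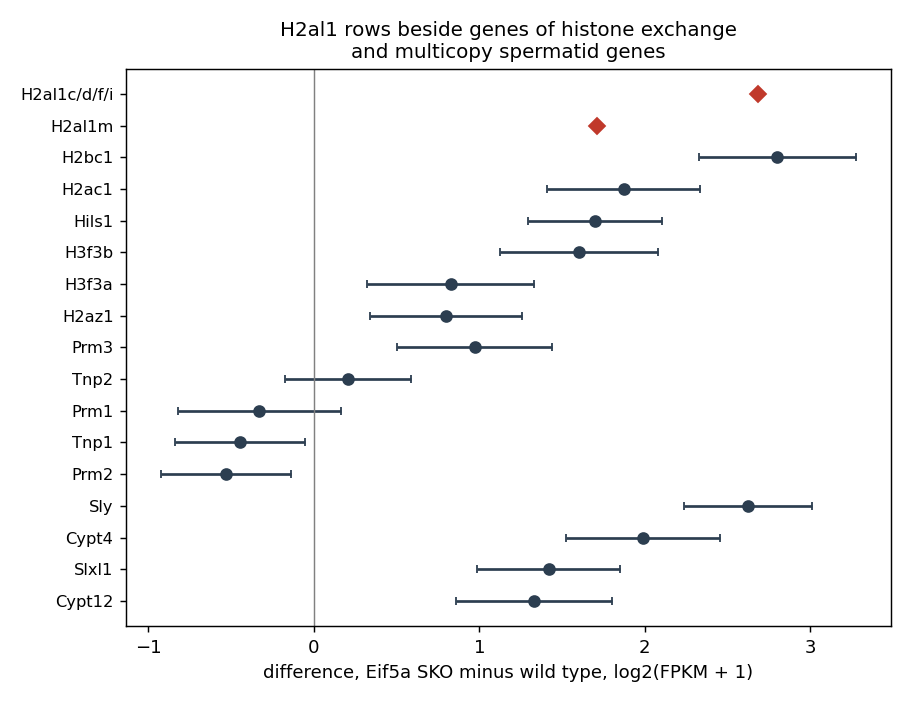
Difference between Eif5a SKO and wild type on the log2(FPKM + 1) scale for the shared row and H2al1m (red diamonds, no error bar because no test was made) and for genes of histone exchange and multicopy spermatid genes (dark circles, with the SE from limma). H2bc1 at 2.80 and Sly at 2.62 lie near the shared row at 2.69, while Tnp1, Tnp2, Prm1 and Prm2 lie between -0.53 and 0.21.

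Other multicopy spermatid genes of the sex chromosomes and their relatives gave a list of 31 genes, of which 19 have a row and 11 were tested. Sly, a Y-linked multicopy gene whose product restrains sex chromosome genes in mouse spermatids, was the 1 gene of the list that rose in limma's test. Sly had 16.7, 30.7 and 20.1 FPKM in SKO libraries, against 1.77, 2.83 and 3.79 FPKM in wild-type libraries (log2 difference 2.62, SE 0.38, limma adjusted p = 0.0474, and 0.00618 to 0.202 over the settings tried). The call was lost in 11 of 17 settings, among them identical rows counted once (limma adjusted p = 0.0552). With TMM-type scaling 7 of the 11 passed, all higher in SKO: Sly, its X-linked relative Slxl1, the perinuclear theca genes Cypt1, Cypt2, Cypt3 and Cypt4, and Fthl17a. With the deposited values 9 of the 11 had an unadjusted p under 0.05, against 11% of all tested rows, and the median log2 difference was 1.87. The X-linked Cypt14 and Cypt15 had overlapping groups, with log2 differences of -0.87 and 0.39 (limma adjusted p = 0.482 and 0.848). Slxl1, which acts against Sly, had 170, 339 and 219 FPKM in SKO libraries, against 70.1, 83.0 and 111 FPKM in wild-type libraries. Cypt4 and Cypt12 of the same list are autosomal, with log2 differences of 1.99 and 1.33 (limma adjusted p = 0.179 and 0.338). Both lie closer to H2al1m than to the autosomal median of 0.10.

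A further list held 21 regulators of sex-linked genes in spermatids, all of them tested. In limma's test 1 rose (Sly), and 2 passed after TMM-type scaling (Sly and Slxl1), with a median log2 difference of -0.04. Trim28, a corepressor, was at 0.34 and Crem, the activator of post-meiotic genes, at -0.04 (limma adjusted p = 0.801 and 0.986). Crem had 141, 316 and 206 FPKM in SKO libraries, against 151, 211 and 317 FPKM in wild-type libraries, fully mixed between the groups.

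The genes most like the shared row were ranked by Pearson correlation of log2(FPKM + 1) over the 6 libraries among 5234 tested protein-coding rows, those whose higher group averaged 5 FPKM or more and that have a name other than a Gm, Rik or LOC identifier. The first was Tfrc, the transferrin receptor gene on chromosome 16, at 0.996. Tfrc had 14.5, 24.9 and 17.3 FPKM in SKO libraries, against 2.50, 2.68 and 2.88 FPKM in wild-type libraries, a rise of 2.40 on the log2 scale (limma adjusted p = 0.0470, and 0.00853 to 0.202 over the settings tried, with the call lost in 12 of 17). H2al1a, H2al1e and H2al1b followed at 0.995, 0.995 and 0.994. Sec14l1, a lipid-transfer family gene on chromosome 11, was the other gene in the first 5, at 0.994, with 5.72, 7.66 and 6.82 FPKM in SKO libraries, against 2.95, 2.53 and 2.51 FPKM in wild-type libraries (limma adjusted p = 0.275). With 6 libraries in 2 groups, any gene with a like step between genotypes ranks high, and the ranking is a description only.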

How the data were processed

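The deposited table gives 1 value per gene row and library in FPKM, computed by the authors, with no counts. Per the submitters' processing notes the build was mm10 and the tools were STAR, Cufflinks, cutadapt and Bowtie2. The sources used here state neither the annotation nor the treatment of reads that fit several places, which bears on every H2al1 row. The kit was CATS or D-Plex Small RNA-seq per the labels' protocols, with no kit named per library. The 3 densest rows held 24.6% to 46.4% of a library's summed FPKM, and 181 rows share their 6 values with another row.

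Values were used as deposited. The 15578 rows averaging 1 FPKM or more were compared on log2(FPKM + 1), a pseudocount of 1. The two-sided test was limma 3.58.1 (R 4.3.3), using lmFit and trended eBayes. Adjusted p-values are Benjamini-Hochberg over these rows, called under 0.05. The fit was tested on simulated data. TMM-type scaling trimmed 0.3 of the ratios and 0.05 of the levels. The absolute depth is unknown, and read numbers are estimates from steps of low values within 2% tolerance. They rest on RefSeq lengths and cover no other error.

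The members and all lists were chosen with earlier results of these data known. The text names the members, the H2A.L and H2A.B family, list genes past the test and the 3 most abundant of each list, and the 5 rows most like the shared row. Genes past the test only after scaling, and Prm1, Prm2, H2ac1, Brdt, Cypt14 and Cypt15, were named after their values were seen. So were neighbours at the ends of the range and the muscle, matrix, haemoglobin and Sertoli markers. Gene positions, promoter windows and the first bases of the genes come from RefSeq GRCm38.p6. Samples were grouped by genotype label and column name. Alternatives were the pseudocount, the filter, the scaling, the eBayes setting, identical rows counted once, each library left out, and a block for the replicate number.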

Additional observations from a re-analysis of the deposited data

How the results depend on the processing

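The shared row kept its direction in all 17 other settings, from 1.54 (pseudocount 5) to 3.37 (pseudocount 0.1), and H2al1m in all 16 that gave a value, from 0.82 to 2.42 under the same pseudocounts. The filter, the eBayes setting, the replicate block and counting identical rows once cannot change a difference of group means. Nothing is read from the direction under those settings. H2al1m had no value with a mean of at least 5 FPKM, nor had the comparison of the shared row with it. Leaving out 1 library at a time gave 2.50 to 2.83 for the shared row and 1.45 to 2.02 for H2al1m. The shared row minus H2al1m stayed within 1 SD of its reported value, at 0.72 to 1.17 in SKO and -0.28 to 0.33 in wild type. Leaving out a library of the other genotype cannot change its value within a genotype.

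Counts of rows called depended on the setting. Against 17 higher and 3 lower in SKO, limma called 3 and 1 with a pseudocount of 5, 4 and 1 without a filter, 78 and 8 with a mean of at least 5 FPKM, 119 and 40 after TMM-type scaling, 248 and 198 after quantile normalization (55.6% higher), 53 and 10 with robust eBayes, and 7 and 2 with identical rows counted once. The median of all rows moved by over 0.1 with TMM-type scaling, to -0.003, with quantile normalization, to -0.018, with equal sums, to -0.025, and without SKO replicate 1, to 0.231, against 0.127. Leaving out 1 library gave 3 to 28 higher and 1 to 4 lower rows: 28 and 3 without SKO replicate 2, 5 and 1 without wild-type replicate 1, 8 and 2 without wild-type replicate 2, 3 and 1 without wild-type replicate 3, and 12 and 1 without SKO replicate 3.

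The list genes counted here are the wider family and the lists other than the cell type markers, with 82 genes tested. Markers such as Dcn are left out of these counts. Of the list genes, 1 (Sly) passed as reported. The number was 0 with a pseudocount of 5, without a filter, with eBayes without a trend or with identical rows counted once. It was 9 with a mean of at least 5 FPKM, 15 after TMM-type scaling, 20 after quantile normalization and 7 with robust eBayes. It was 0 without any 1 library, 22 to 35 genes then having an unadjusted p under 0.05. With all libraries 30 genes had one, beside 11% of all tested rows and 44.8% of tested X-linked protein-coding rows. Of the 30, 10 were family rows, and these include 6 H2al1 copies that share sequence with the members. The replicate number as a block gave 4 higher and 1 lower rows and 0 list genes, with no change in the members' differences by construction. Same-numbered libraries correlated at 0.0926, 0.0002 and 0.0243 in their deviations from the group means. Differently numbered ones ran from -0.107 to 0.0799. The libraries were therefore not paired, but with 3 per group this check cannot show that no pairing exists.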
